A study of Saccharomyces cerevisiae with 11 samples.

Results

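Hypoxic and heme-repressed genes of budding yeast (Saccharomyces cerevisiae) are best known as transcripts that are held low when heme and oxygen are present. ROX1, grouped with them here, differs in this: it encodes their repressor and is itself induced by heme. The 10 examined here were taken by name, and each was found by its NCBI Gene number in both deposited tables, which hold 5936 and 5931 rows. They are the cell wall mannoprotein genes DAN1, TIR1, TIR2, TIR3 and TIR4, the translation factor gene ANB1, the mitochondrial genes AAC3 and CYC7, the heme synthesis gene HEM13 and the repressor gene ROX1. Polyadenylated RNA was sequenced from 11 libraries. The genotype labels are GD, SD and RD, with 3 separately numbered libraries each, and wild-type, with 1 library called control and 1 called ControlSYN3. The labels do not spell out these abbreviations, and the sources used here do not give strain background, medium, growth stage or aeration. The series concerns essential genes brought together in clusters, and its design text speaks of synthetic beside wild-type gene copies. Control, GD and SD share 1 table, and ControlSYN3 and RD share the other. The 3 columns headed MD1, MD5 and MD6 were read as RD1, RD5 and RD6 from their numbers, which is an inference, so each RD value below rests on it.

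Heme, whose synthesis needs oxygen, acts in yeast as the signal of oxygen. In the presence of heme the activator Hap1 drives ROX1, and the Rox1 protein, together with the Tup1-Cyc8 corepressor, holds down the hypoxic genes. When oxygen falls, the repression is lifted and the sterol-sensing factor Upc2 takes part in turning on the DAN and TIR genes, whose mannoproteins then take the place of the aerobic wall proteins Cwp1 and Cwp2. Several hypoxic genes have an aerobic partner with the same job: HYP2 for ANB1, CYC1 for CYC7 and PET9 for AAC3. In the S288C laboratory strain HAP1 carries a Ty1 insertion (the HAP1 allele of these strains was not analysed here).

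Promoters were read from the R64 reference genome, the build named in the submitters' processing notes, as the 500 bases before each start codon. The 4 stretches printed here hold the densest matches to the letters that Rox1 binds (ANB1), the nearest full-length match (HEM13), the single match of AAC3 and the 2 AR1-like matches of DAN1. Capitals mark ATTGTT in ANB1 and AAC3, ATTGTTCTC in HEM13 and TCGTTNAG in DAN1. All run 5′ to 3′ towards the start codon, at chrX:525559-525703, minus strand for ANB1, chrIV:546430-546498, plus strand for HEM13, chrII:415759-415824, plus strand for AAC3 and chrX:709870-710129, minus strand for DAN1.
ANB1: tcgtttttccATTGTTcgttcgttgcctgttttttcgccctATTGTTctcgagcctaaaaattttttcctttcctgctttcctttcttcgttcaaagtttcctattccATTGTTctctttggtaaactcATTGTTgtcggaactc
HEM13: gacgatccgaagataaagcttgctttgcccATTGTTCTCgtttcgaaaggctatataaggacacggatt
AAC3: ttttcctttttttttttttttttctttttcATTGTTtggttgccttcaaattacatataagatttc
DAN1: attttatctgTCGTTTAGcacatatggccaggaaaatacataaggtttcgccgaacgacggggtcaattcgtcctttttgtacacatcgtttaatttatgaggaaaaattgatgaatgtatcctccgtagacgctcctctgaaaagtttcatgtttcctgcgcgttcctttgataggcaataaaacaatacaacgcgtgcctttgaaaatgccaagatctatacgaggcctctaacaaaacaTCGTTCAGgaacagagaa

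ATTGTT, the core read by the HMG domain of Rox1, occurred on either strand in the windows of 9 of the 10 genes. The exception was CYC7. The same letters stood in 48.9% of 6000 windows of this length, so a match by itself is common. ANB1 held 4 matches, starting 312, 281, 214 and 193 bases before its start codon, all on the gene's strand. The longer form ATTGTTCTC, which contains that core, occurred in 1.13% of windows and in 2 of the 10 genes, at 2 positions in ANB1 (281 and 214 bases before the start codon) and at 182 bases in HEM13. TCGTATA, the core of the sterol regulatory element bound by Upc2 and Ecm22, stood in the windows of DAN1, TIR3 and CYC7 and in 7.0% of all windows. TCGTTNAG, a pattern like the AR1 element known from the DAN and TIR genes, stood in those of DAN1 and TIR4 and in 5.12% of all windows. The genes TIR4 and TIR2 are neighbours on chromosome XV with their 3′ ends 396 bases apart, so their windows lie on the outer sides of the pair. A match describes letters only and shows no binding.

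**Figure D1:**
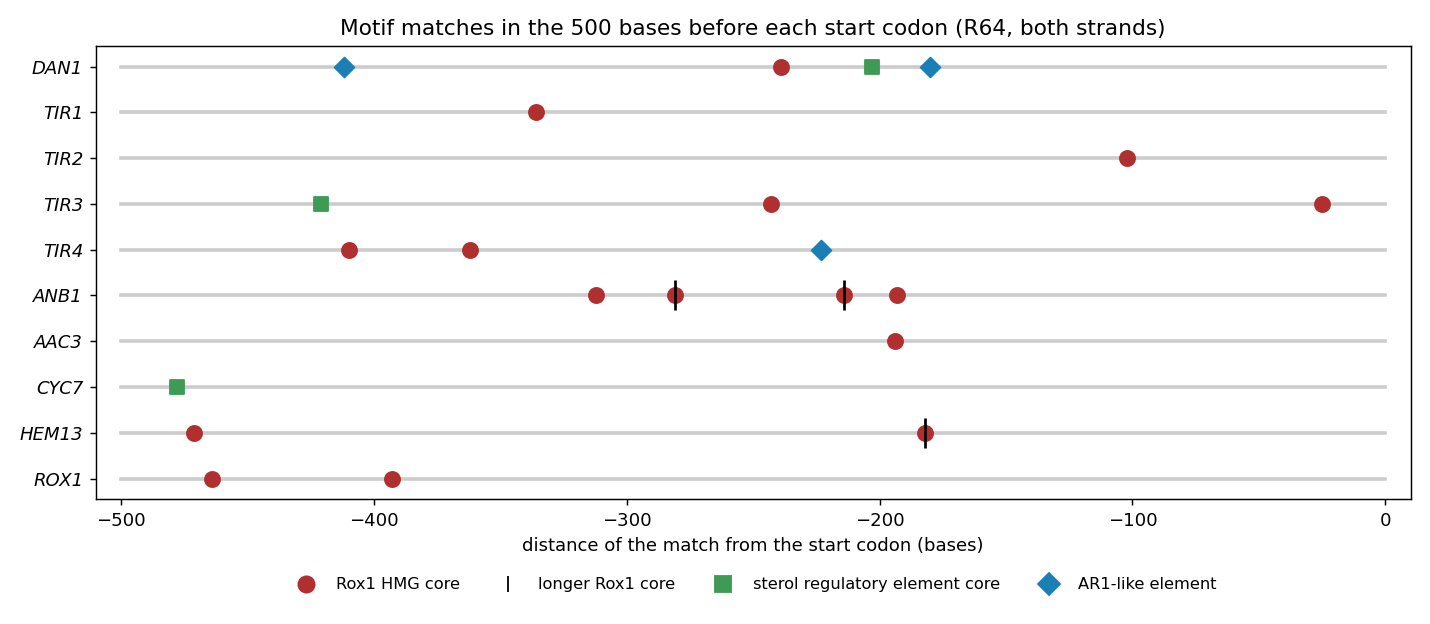
Motif matches in the 500 bases before the start codon of each of the 10 genes, with the distance of each match's first base on the x axis and 1 gene per row. ANB1 shows 4 matches to the Rox1 core between 312 and 193 bases, and CYC7 shows none.

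Levels are FPKM, fragments scaled by gene length and by the library's mapped total, so the read depth is unknown. Fold changes are differences of log2(FPKM + 1), tested with limma across all genes whose mean reached 1 FPKM, and called means a Benjamini-Hochberg adjusted p under 0.05. After a ± sign SD is the standard deviation and SE the standard error; elsewhere SD is the strain group. The single wild-type libraries have no replicate, and each was assumed to vary like the strains of its table. Nothing in the labels says that the libraries of a group came from separate cultures, so the p-values measure only the spread between them. Most transcripts were lower in the strains than in the control, the median log2 fold change of all tested genes being -0.44 for GD and -0.37 for SD. With GD set against SD it was -0.04, and in RD relative to ControlSYN3 -0.10. Median-of-ratios scaling moved these medians to -0.03, 0, 0 and 0, and the share of calls that were higher rose from 15.5% to 50.8% for GD and from 25.0% to 51.6% for SD, both relative to the control. RD1 stood apart. The 5 marker genes of a-type cells reached 76.6 to 2559 FPKM there and at most 18.9 FPKM in ControlSYN3, RD5 and RD6, while MF(ALPHA)1, a pheromone gene of alpha-type cells, had 27.4 FPKM there and 5895 to 6637 FPKM in the same 3 libraries. Results on RD are therefore given with and without RD1.

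All 10 genes were detected in every library, at levels far apart. Where 3 values of a group are given below, they follow the library numbers (1, 2, 3 for GD and SD). Gene positions are those of the R64 annotation, in which none of the 10 overlaps another gene. ROX1 was the highest of the 10 in each library of ControlSYN3 and RD, and CYC7 was the highest in the control and in each SD library. HEM13 led in GD1 and GD3, and ROX1 led in GD2. DAN1 and AAC3 were the 2 lowest in all 11 libraries, between 1.11 and 10.8 FPKM. They exceeded at most 9.1% of all rows of a library. CYC7 exceeded 93.6% of rows in the control, 87.1% to 92.6% in SD, 67.1% to 78.9% in RD, 75.0% in ControlSYN3 and at most 42.2% in GD.

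**Figure D2:**
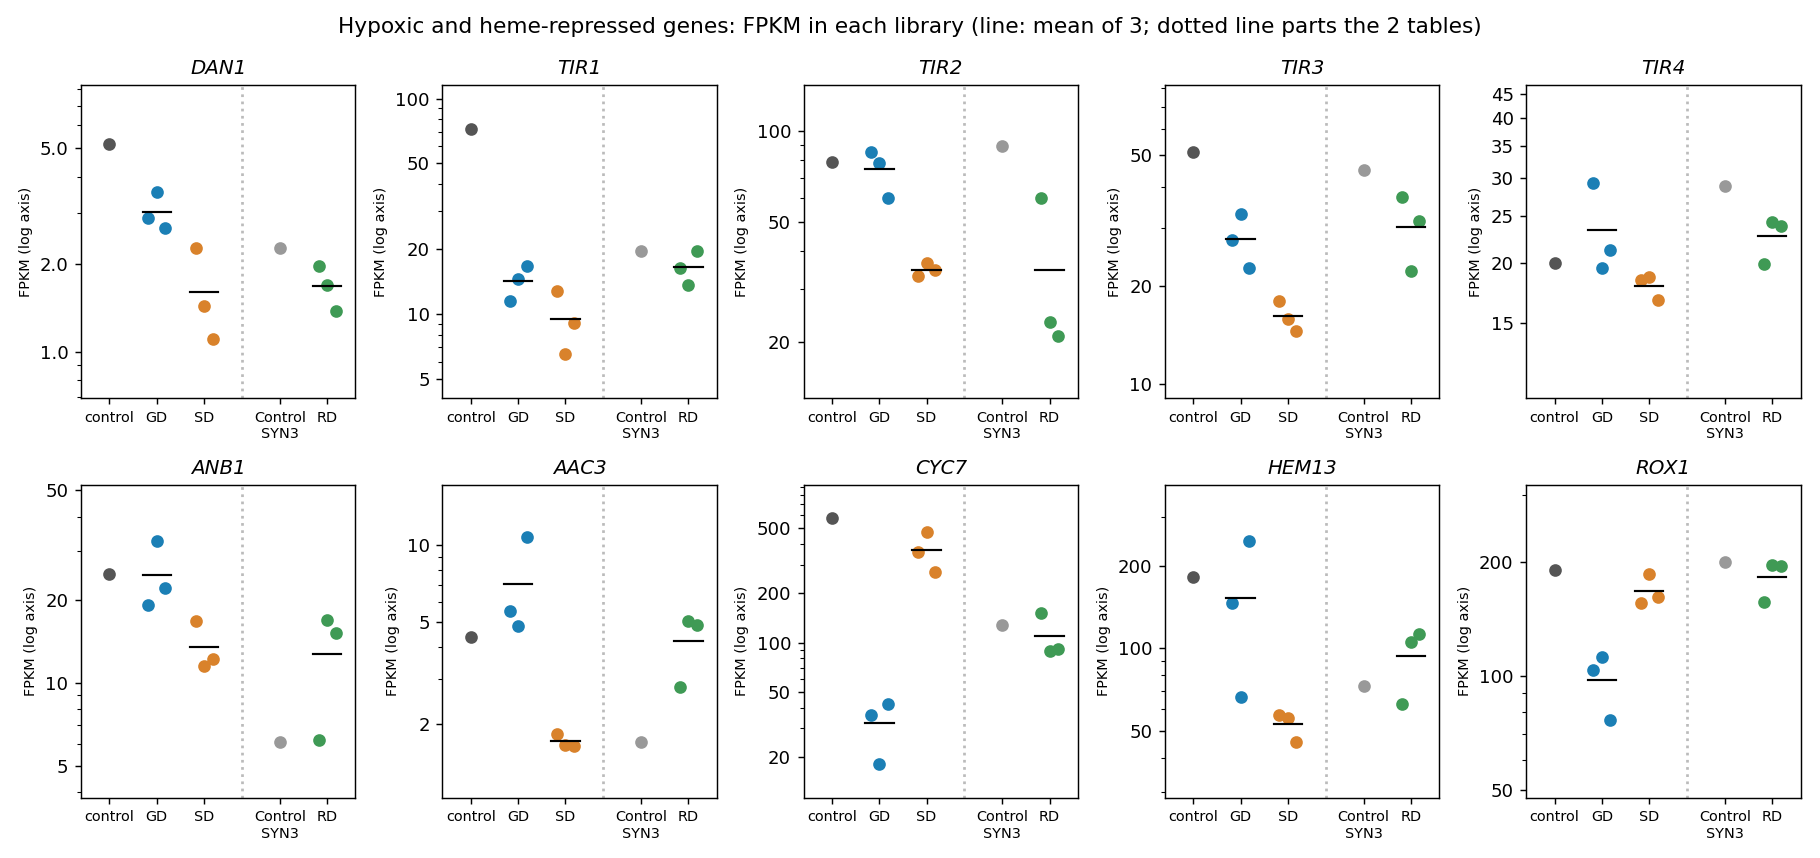
FPKM of the 10 genes in each of the 11 libraries on log axes, with 1 point per library and a line at the mean of 3 libraries. CYC7 spans 17.96 to 578 FPKM, and its 3 GD libraries lie below all others.

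GD and SD, the comparison with 3 libraries on each side, differed in 7 of the 10 genes. TIR2, TIR3, ANB1, HEM13 and AAC3 were higher in GD, while CYC7 and ROX1 were lower. DAN1, TIR1 and TIR4 were not called. Thus 5 of 10 were called higher, against 20.4% of the 5899 genes tested, and 2 of 10 lower, against 20.4%. In 7 of the 10 genes every GD library lay above every SD library, a pattern shown by 27.9% of all tested genes, and in 2 every GD library lay below every SD library, as in 28.5% of them. The median log2 fold change of the 10 was 0.69. In bulk RNA, fewer cells expressing a gene and less RNA per cell cannot be told apart.

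ROX1, the repressor gene of the group (YPR065W, chromosome XVI, 679693 to 680799, plus strand), was at 104, 112 and 76.2 FPKM in GD. In SD1, SD2 and SD3 it was at 156, 186 and 162 FPKM. The 2 groups did not overlap, and GD was lower (-0.79 ± 0.19 on the log2 scale, SE; limma adjusted p = 0.0133). This call was lost without SD2 (adjusted p = 0.0519) or SD3 (0.0518) in the same limma fit.

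Among the mannoprotein genes, TIR2 (YOR010C, chromosome XV, 346195 to 346950, minus strand) separated the groups most. It stood at 85.2, 78.6 and 60.2 FPKM in GD and at 33.0, 36.5 and 34.6 FPKM in SD. The SD libraries lay close together, and every GD library lay above them (1.07 ± 0.16 on the log2 scale, SE; limma adjusted p = 0.0022). TIR3 (YIL011W, chromosome IX, 333727 to 334536, plus strand) was at 27.5, 33.0 and 22.6 FPKM in GD and at 17.9, 15.9 and 14.6 FPKM in SD. It was higher in GD by 0.74 ± 0.17 on the log2 scale (SE; limma adjusted p = 0.0125), though not without SD3 (0.0613). TIR1 (YER011W, chromosome V, 175248 to 176012, plus strand) was at 11.4, 14.5 and 16.7 FPKM in GD and at 12.8, 6.51 and 9.07 FPKM in SD. Its groups overlapped, since SD1 exceeded GD1 (limma adjusted p = 0.106). DAN1 (YJR150C, chromosome X, 708811 to 709707, minus strand) was at 2.89, 3.54 and 2.66 FPKM in GD and at 2.28, 1.44 and 1.11 FPKM in SD. These values do not overlap but lie near the bottom of the tables, and the gene was not called (limma adjusted p = 0.0823), except without trend and robust estimation (0.0357). TIR4 (YOR009W, chromosome XV, 344335 to 345798, plus strand) was at 29.3, 19.5 and 21.2 FPKM in GD and at 18.4, 18.7 and 16.7 FPKM in SD. It differed least of the 10 (0.34 ± 0.18 on the log2 scale, SE; limma adjusted p = 0.154).

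ANB1, which encodes the hypoxic form of translation factor eIF5A (YJR047C, chromosome X, 524908 to 525381, minus strand), carried the 4 Rox1 cores printed above. It was at 19.2, 32.7 and 22.1 FPKM in GD and at 16.8, 11.5 and 12.1 FPKM in SD. GD2 was the highest library and SD1 came close to GD1 (0.81 ± 0.23 on the log2 scale, SE; limma adjusted p = 0.0277). The call did not hold without SD2 (0.0916) or SD3 (0.1002). ANB1 shares 90.9% of its coding bases with HYP2, and the longest identical run between them is 43 bases. The sources used here do not give how fragments matching both were divided.

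The mitochondrial genes moved in opposite directions. AAC3, an ADP/ATP carrier of the inner membrane used at low oxygen (YBR085W, chromosome II, 415983 to 416906, plus strand), was at 5.53, 4.81 and 10.8 FPKM in GD. In SD1, SD2 and SD3 it was at 1.83, 1.65 and 1.64 FPKM. GD3 stood above the other GD libraries, and all 3 exceeded SD (1.5 ± 0.30 on the log2 scale, SE; limma adjusted p = 0.00751). CYC7, which encodes iso-2-cytochrome c (YEL039C, chromosome V, 79636 to 79977, minus strand), was at 36.1, 17.96 and 42.0 FPKM in GD. It was at 361, 473 and 270 FPKM in SD. Every SD library was far above every GD library, and the ratio of the group means was 11.5 (-3.53 ± 0.34 on the log2 scale, SE; limma adjusted p = 0.000497). Of the 10 genes, this was the largest difference between GD and SD.

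HEM13, the gene of coproporphyrinogen oxidase, an oxygen-using step of heme synthesis (YDR044W, chromosome IV, 546642 to 547628, plus strand), was at 147, 66.5 and 246 FPKM in GD. It was at 57.2, 56.0 and 45.8 FPKM in SD. GD2 lay just above SD1, while GD1 and GD3 were far higher, so the GD spread was wide at 153.2 ± 90.1 FPKM (SD, n = 3). The gene was called higher in GD (1.33 ± 0.43 on the log2 scale, SE; limma adjusted p = 0.0413), but the call was lost when GD1, GD3 or any 1 SD library was left out (0.0735 to 0.121). It was also lost with median-of-ratios scaling (0.0553). The calls of TIR2 and CYC7 held under every alternative run for GD against SD, and that of AAC3 held wherever its low level let it be tested.

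**Figure D3:**
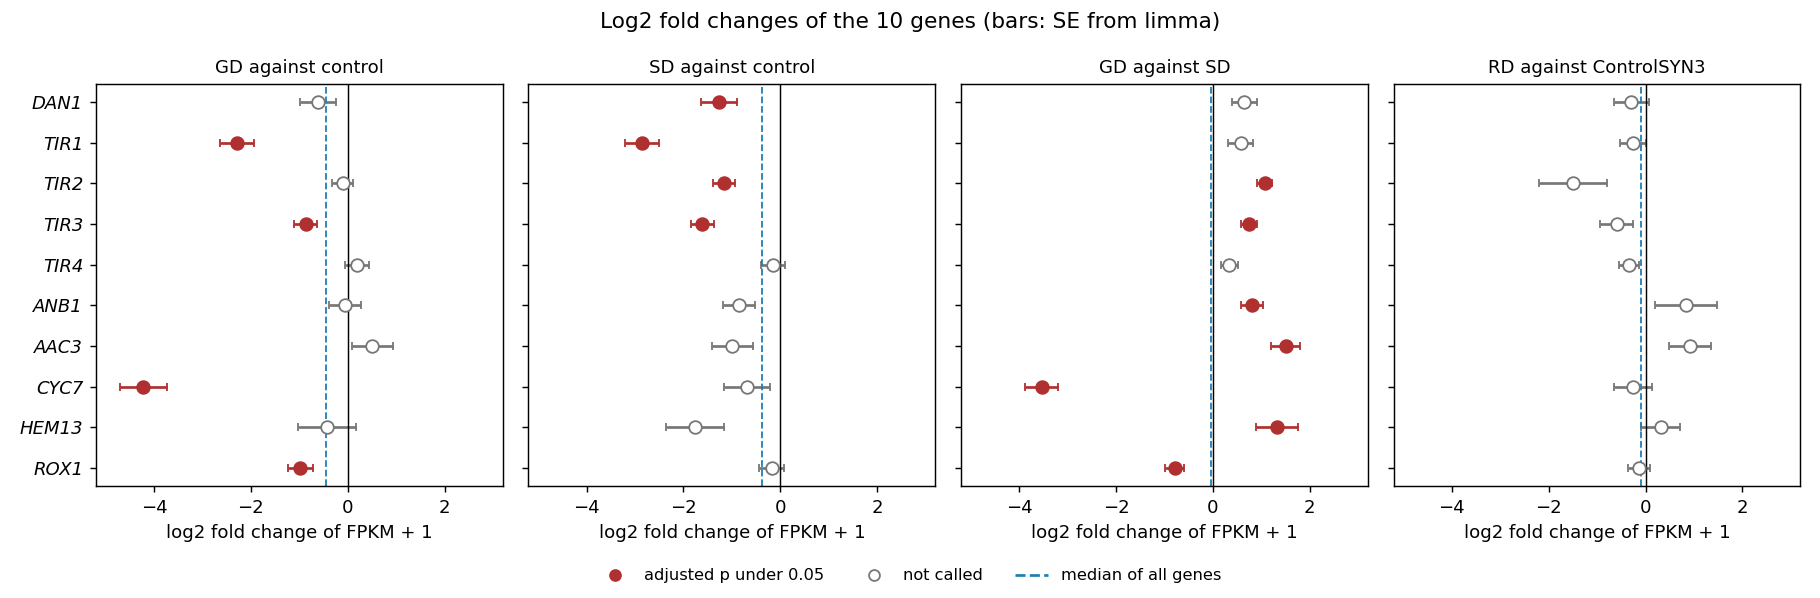
Log2 fold changes of FPKM + 1 for the 10 genes in the 4 comparisons, with bars for the SE, filled points for genes called by limma and a dashed line at the overall median. For GD against SD, CYC7 lies at -3.53 and AAC3 at 1.5.

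Against the single control library, TIR1 and TIR3 were called lower in both strain groups, and each group had 2 further genes called lower. In SD, the mannoprotein genes TIR1, TIR2, TIR3 and DAN1 were called lower and no gene was called higher. In GD, CYC7, TIR1, ROX1 and TIR3 were called lower and none higher. Thus 4 of 10 were lower in SD, against 31.4% of tested genes, and 4 of 10 in GD, against 27.1%, both near the background. The shares of all genes called higher were 10.4% in SD and 4.98% in GD. All 10 genes were below the control in every SD library, a pattern shown by 60.5% of all tested genes. GD against control and SD against control share the single control library, so they are not independent of each other.

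TIR1 set the control apart. Its level was 72.3 FPKM there and between 6.51 and 16.7 FPKM across the 6 GD and SD libraries. No strain library came near the control, and the ratio of the control to the group mean was 5.10 for GD (-2.29 ± 0.35 on the log2 scale, SE; limma adjusted p = 0.00587) and 7.64 for SD (-2.85 ± 0.35, SE; limma adjusted p = 0.00167). TIR3 was at 51.0 FPKM in the control, above all 6 strain libraries, and was lower in SD (-1.61 ± 0.24 on the log2 scale, SE; limma adjusted p = 0.00266). Its call in GD (-0.87 ± 0.24, SE; limma adjusted p = 0.0313) was lost with median-of-ratios scaling (0.109), in the fit of only GD and control (0.119), and without GD1 (0.0702), SD1 (0.0563), SD2 (0.0562) or SD3 (0.0601). TIR2, at 79.0 FPKM in the control, was lower in SD (-1.16 ± 0.22 on the log2 scale, SE; limma adjusted p = 0.00606), while the GD libraries lay on both sides of the control. DAN1, at 5.16 FPKM in the control, was lower in SD (-1.26 ± 0.37, SE; limma adjusted p = 0.0279), though not without SD2 (0.0654) or SD3 (0.0828), nor with median-of-ratios scaling (0.0599).

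CYC7 stood at 578 FPKM in the control, above every other library of the series. In GD its ratio to the control was 0.0554 (-4.22 ± 0.48 on the log2 scale, SE; limma adjusted p = 0.0036). SD libraries were below the control as well but not called (-0.69 ± 0.48, SE; limma adjusted p = 0.284). ROX1, at 190 FPKM in the control, was lower in GD (-0.98 ± 0.26, SE; limma adjusted p = 0.0294), a call lost with median-of-ratios scaling (0.117), without GD1 (0.0546), SD1 (0.0589) or SD3 (0.0621), and in the fit of only GD and control (0.114). HEM13, at 182 FPKM in the control, was just above the threshold in SD (-1.76 ± 0.60, SE; limma adjusted p = 0.05002). It lay further from the threshold with median-of-ratios scaling (0.1504), without GD1 (0.0832) and without any 1 SD library (0.0811 to 0.1089). It was called without GD2 (0.00267) or GD3 (0.0139), with a pseudocount of 0.1 FPKM (0.048) and in the fit of only SD and control (0.00154). In that fit of only SD and control, 7 of the 10 genes were called lower, ANB1 (0.0319), HEM13 and AAC3 (0.0293) being added. Calls rose across all genes there, to 3645 of the 5899 tested in either direction, against 2468 in the fit reported. ANB1 was also called without GD2 (0.0215) and AAC3 without GD3 (0.0306). Neither was called with median-of-ratios scaling (0.229 and 0.2868) or without any 1 SD library.

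The 2 wild-type libraries sit in separate tables, so their values are only set side by side, and for 6 of the 10 genes the control had over 2 times the value of ControlSYN3. CYC7 was at 578 FPKM in the control and at 128 FPKM in ControlSYN3, and TIR1 was at 72.3 and 19.6 FPKM. ANB1 was at 24.8 and 6.12 FPKM, HEM13 at 182 and 73.0 FPKM, AAC3 at 4.37 and 1.70 FPKM and DAN1 at 5.16 and 2.27 FPKM. ROX1, at 190 and 199 FPKM, and TIR3, at 51.0 and 44.9 FPKM, lay closer. The state of the lone control library and a difference between wild type and strain cannot be told apart.

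RD and ControlSYN3 gave no called gene among the 10, but RD1 and the other RD libraries differed. None of the 5895 tested genes was called (0% higher and 0% lower by limma), while 304 had an unadjusted p under 0.05 in the higher and 367 in the lower direction. In RD, 6 of the 10 genes, all 5 mannoprotein genes and ROX1, were below ControlSYN3 in every RD library, as were 41.2% of all tested genes. TIR2 was at 88.9 FPKM in ControlSYN3, at 59.8 FPKM in RD1 and at 23.2 and 20.8 FPKM in RD5 and RD6. ANB1 was at 6.12 FPKM in ControlSYN3, at 6.18 FPKM in RD1 and at 16.9 and 15.2 FPKM in RD5 and RD6. For both genes RD1 lay nearer to ControlSYN3 than to the other RD libraries. AAC3 was at 1.70, 2.78, 5.03 and 4.87 FPKM in ControlSYN3, RD1, RD5 and RD6, and HEM13 at 73.0, 62.8, 105 and 113 FPKM in the same order. HEM13 in RD1 lay on the other side of ControlSYN3 from RD5 and RD6. CYC7 divided them likewise, at 151 FPKM in RD1 and at 88.6 and 90.8 FPKM in RD5 and RD6, around 128 FPKM in ControlSYN3.

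Without RD1, ANB1 (1.26 ± 0.15 on the log2 scale, SE; limma adjusted p = 0.00426), AAC3 (1.14 ± 0.22, SE; limma adjusted p = 0.0156) and HEM13 (0.57 ± 0.10, SE; limma adjusted p = 0.0129) were called higher. TIR2 (-1.97 ± 0.12, SE; limma adjusted p = 0.00176), TIR3 (-0.74 ± 0.22, SE; limma adjusted p = 0.0466) and CYC7 (-0.50 ± 0.10, SE; limma adjusted p = 0.0150) were called lower. That fit has 1 residual degree of freedom, from the close pair RD5 and RD6, and it called 22.1% of all tested genes higher and 31.8% lower. The 3 of 10 higher and 3 of 10 lower lie near those shares. The mating-type markers of RD1 moved with these differences, and their part in the result was not tested. HYP2, the aerobic partner of ANB1, was at 814 FPKM in ControlSYN3 and at 952, 1312 and 1625 FPKM in RD1, RD5 and RD6. It was thus higher in RD as well, and whether shared fragments entered the ANB1 values was not tested.

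Ratios of a hypoxic gene to its aerobic partner, both in FPKM and so per length, set the isoforms against each other within a library. CYC7 per CYC1 was 23.1%, 13.8% and 22.5% in GD and 161%, 247% and 163% in SD. It was 340% in the control, 74.0% in ControlSYN3 and 57.6% to 82.0% in RD. The transcript of the hypoxic cytochrome c was therefore above that of CYC1 in the control and SD, and below it in GD, RD and ControlSYN3. CYC1 itself was at 130 to 187 FPKM in GD and at 165 to 224 FPKM in SD and was not called between them (limma adjusted p = 0.254). AAC3 stayed at or below 1.82% of PET9, the main ADP/ATP carrier, in all 11 libraries, with 0.856% to 1.82% in GD and 0.303% to 0.369% in SD. ANB1 stayed at or below 6.22% of HYP2, the aerobic eIF5A gene, and that highest value was GD2. Between GD and SD the ratios did not overlap for CYC7 or AAC3 and overlapped for ANB1. For a ratio of 3 against 3 libraries the exact permutation test (two-sided) gave p = 0.1 for CYC7 and for AAC3, the smallest value it can give, and p = 0.3 for ANB1. COX5B, the hypoxic subunit of cytochrome c oxidase, was at 82.9% to 268% of its partner COX5A, and these GD and SD ratios overlapped too (exact permutation p = 0.5).

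**Figure D4:**
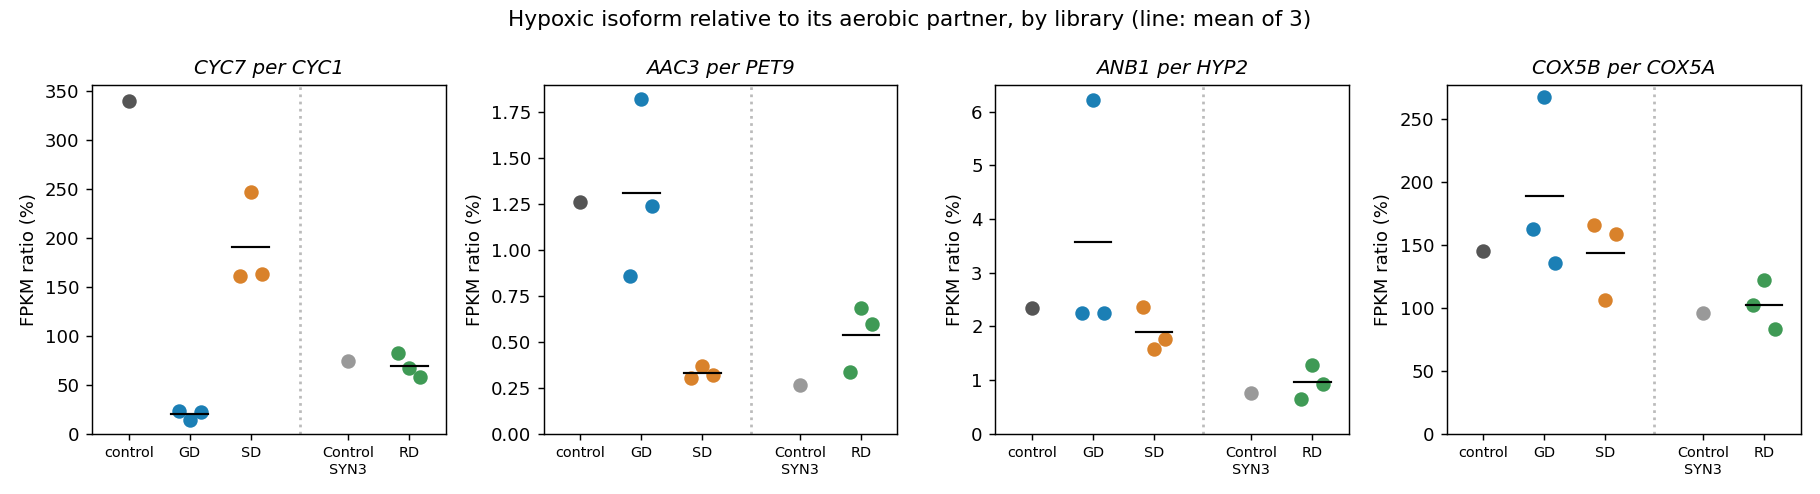
FPKM of a hypoxic gene as a percentage of its aerobic partner in each library, on linear axes from 0, with a line at the mean of 3 libraries. CYC7 per CYC1 reaches at most 23.1% in GD and at least 161% in SD.

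Related genes were described by lists made with the earlier results of these data known. Of the heme-activated and respiratory genes, 10 of 12 were called lower in GD than in SD (9 of 12 with median-of-ratios scaling) and none higher, against 20.4% of all genes in each direction, with a median log2 fold change of -1.20 against -0.04 for all genes. The 2 with the lowest p were CTT1, of cytosolic catalase, at 46.8 FPKM in GD and 566 FPKM in SD (group means; limma adjusted p = 0.0004409), and HAP4, the activating subunit of the Hap2-Hap3-Hap4-Hap5 complex, at 79.7 and 421 FPKM (limma adjusted p = 0.0007021). Against the control, 4 of the 12 were lower in GD (SOD2 and CTA1 with the lowest p), near the 27.1% of all genes, and 1 of 12 with median-of-ratios scaling. In SD, 3 were higher (CTT1 and HAP4 with the lowest p; 5 with that scaling), against 10.4% of all genes.

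Of the regulators, 13 of 14 had a row. HAP1, at 103 to 150 FPKM in GD and at 126 to 141 FPKM in SD, was not called between them (limma adjusted p = 0.640). CYC8, the corepressor partner of Tup1, was higher in GD (96.5 against 49.8 FPKM, group means; limma adjusted p = 0.0133), and HAP4, HAP2 and HAP5 were lower. Thus 1 of 13 was higher and 3 of 13 lower, below or near the 20.4% of all genes in each direction. UPC2, ECM22, MOT3, MGA2, IXR1, SUT1, HAP3 and SPT23 were not called. UPC2 had a mean of 23.5 FPKM in GD and 19.9 FPKM in SD.

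Of the other genes of heme synthesis, 1 of 7 was called between GD and SD, HEM12, of uroporphyrinogen decarboxylase, at 120 FPKM in GD and 80.0 FPKM in SD (group means; limma adjusted p = 0.0231), no more than the background of 20.4% in each direction. HEM12 and HEM4 were lower in SD than in the control, though neither with median-of-ratios scaling, and none was called in GD. Of 14 other anaerobic and sterol uptake genes, OLE1, of the oxygen-using fatty acid desaturase, had 127 FPKM in the control, 980 to 1552 FPKM in GD and 825 to 1062 FPKM in SD, and was called higher in both (3.30 ± 0.34 in GD and 2.84 ± 0.34 in SD on the log2 scale, SE; limma adjusted p = 0.00263 and 0.00151). FET4, a low-affinity iron transporter gene, was at 228 to 297 FPKM in GD, at 94.9 to 158 FPKM in SD and at 60.8 FPKM in the control, and it was higher in GD than in both. HMG2, of sterol synthesis, was higher than the control in GD and SD. DAN2 and DAN3, which the reference lists as PAU23 and PAU24, were lower than the control in both. The 2 wild-type libraries, in separate tables, differed in most of these genes. Control and ControlSYN3 had 127 and 392 FPKM for OLE1, and 27.1 and 52.7 FPKM for HMG2. They had 113 and 33.6 FPKM for DAN2 and 39.0 and 2.16 FPKM for DAN3. FET4 lay closer, at 60.8 and 55.4 FPKM. OLE1 was at 416 to 697 FPKM in RD. Between GD and SD, 1 of the 14 was higher in GD (FET4) and 3 were lower, against 20.4% of all genes in each direction. The lower ones were DAN2 (19.4 against 37.6 FPKM, group means; limma adjusted p = 0.0122), the sterol importer gene PDR11 (5.76 against 10.2 FPKM; 0.0306) and the mannoprotein gene DAN4 (11.7 against 17.3 FPKM; 0.0406).

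Among the seripauperin genes, relatives of the DAN and TIR genes, the calls between GD and SD ran opposite to those of TIR2 and TIR3. Of 18 tested, 9 were lower in GD than in SD and none higher, against 20.4% of all genes in each direction, with PAU7 and PAU5 the lowest in p. Among the 9 was DAN2, counted here as PAU23, and so were PAU21 and PAU22, which have identical coding sequences. PAU15 and PAU19, also among the 9, had GD means of only 0.567 and 0.117 FPKM. The median log2 fold change of the 18 was -0.58. Against the control, 7 were lower in GD and 4 in SD (4 and 2 with median-of-ratios scaling), against 27.1% and 31.4% of all genes, and none was higher. Of the aerobic partners, CWP2, a major wall mannoprotein gene, was at 11124 to 13689 FPKM in GD and at 3253 to 3297 FPKM in SD (1.91 ± 0.23 on the log2 scale, SE; limma adjusted p = 0.00113). COX5A and AAC1 were lower in GD. Thus 1 of 8 was higher and 2 of 8 were lower, against 20.4% of all genes in each direction. CWP1, the other aerobic wall protein gene named above, was not called (35.5 FPKM in GD and 30.8 FPKM in SD, group means; limma adjusted p = 0.588). TIP1 was not called either (2173 FPKM in GD and 1373 FPKM in SD; limma adjusted p = 0.112). TIR1 reached 0.0942% to 0.13% of CWP2 in GD and 0.198% to 0.388% in SD. In RD against ControlSYN3 no gene of any kind was called with RD1 in the fit. Without RD1, 22.1% of all genes were called higher and 31.8% lower, and the counts were 2 higher and 0 lower of 7 for heme synthesis, 0 and 7 of 14 for the other anaerobic and sterol uptake genes, 0 and 6 of 12 for the heme-activated genes, 1 and 5 of 13 for the regulators, 2 and 12 of 20 for the seripauperin genes and 3 and 2 of 8 for the aerobic partners.

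**Figure D5:**
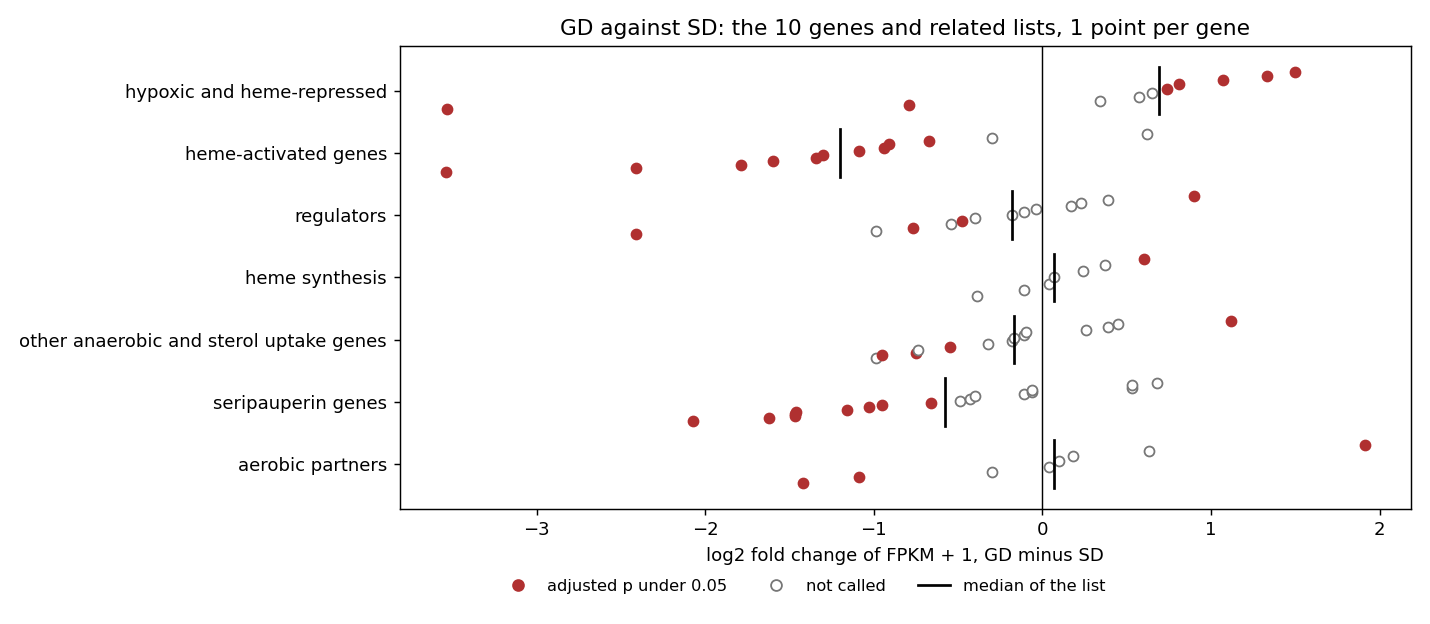
Log2 fold change of FPKM + 1 for GD minus SD, with 1 point per gene, rows for the 10 genes and 6 related lists, filled points for genes called by limma and a line at the median of each list. The heme-activated genes have a median of -1.20 and the 10 genes one of 0.69.

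The 10 genes did not share one pattern over the libraries. Likeness was measured as the root mean square difference of log2(FPKM + 1), centred within each table, over the 11 libraries. DAN1 and TIR3 were the most alike pair at 0.21, followed by DAN1 with TIR4 and HEM13 with AAC3 at 0.38 each, and DAN1's low level compresses its values on this scale. AAC3 and CYC7 were the least alike at 2.03, and CYC7 was at least 1.23 from every other member. Among 5393 other genes, those nearest to a member were CDC8 and TRM9 for DAN1 (0.11 and 0.16), WIP1 and PTI1 for TIR1 (0.20 and 0.27), YGR146C-A and KAR9 for TIR2 (0.31 and 0.33) and ECM25 and PFA5 for TIR3 (0.14 and 0.17). CHD1 and YRA2 were nearest to TIR4 (0.11 each), RRB1 and UTP21 to ANB1 (0.16 and 0.18), RFC5 and IFA38 to HEM13 (0.19 and 0.20) and TIF1 and PMT4 to AAC3 (0.14 and 0.17). For ROX1 they were YPR084W and SSL2 (0.14 and 0.15). For CYC7 the nearest genes were the most distant, SOL4 and SUE1 (0.47 and 0.59), while the median distance of all these genes from CYC7 was 1.51. The measure is not scaled, so a gene with a wide range, as CYC7 (17.96 to 578 FPKM), lies far from most others. For TIR2 that median was 0.75. SOL4 was at 28.1 to 41.2 FPKM in GD, at 402 to 467 FPKM in SD and at 319 FPKM in the control.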

How the data were processed

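The authors deposited FPKM in 2 tables, per the file headers; the submitters' processing notes name RSEM, Bowtie2, BWA and the build R64, without versions or roles. Frozen cells were ground, and oligo-dT beads selected the RNA, per the labels' protocols. Strandedness and the treatment of recoded copies are not given in the sources used here. FPKM are relative to each library's total, so a few abundant transcripts can shift all others.

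Gene numbers were matched to R64 (RefSeq), 5774 and 5770 rows matching. Testing was by limma 3.58.1 (R 4.3.3), with log2(FPKM + 1) as input, which understates changes of low genes, with trend and robust empirical Bayes, 1 model per table, for genes whose mean reached 1 FPKM, and Benjamini-Hochberg adjustment over all of them; called means an adjusted p under 0.05. Residual degrees of freedom were 4 and 2. The fit was also run on simulated data in which the wild-type library was given the spread of the strains. Such a run cannot test the assumption that it varies like them. Levels are mean ± SD.

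The members, lists, comparisons and alternatives were chosen with earlier results of these data known. Named genes were the members, fixed partners and regulators, the 2 called genes of lowest p in a list, and the 2 nearest genes by pattern with a mean of at least 10 FPKM in both tables. Coding sequences were aligned with Biopython 1.88.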

Additional observations from a re-analysis of the deposited data

Results flagged for a closer look

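ANB1 and AAC3 moved in opposite directions in SD and RD relative to the wild-type library of their own table. ANB1 was below the control in 3 of 3 SD libraries (log2 fold change -0.85) and above ControlSYN3 in 3 of 3 RD libraries (0.84). AAC3 was below the control in 3 of 3 SD libraries (log2 fold change -0.99) and above ControlSYN3 in 3 of 3 RD libraries (0.92). Every SD library lay below the control for 60.5% of all tested genes, so that part of the pattern is common. The share of genes with every RD library above ControlSYN3 was not counted. The difference between the 2 comparisons was not tested, since the libraries come from separate tables, and none of these 4 changes was called in the fits reported. For ANB1, RD1 was level with ControlSYN3 (6.18 against 6.12 FPKM). Without RD1, both genes were called higher in RD (1.26 for ANB1, limma adjusted p = 0.00426, and 1.14 for AAC3, 0.0156). In the fit of only SD and control, both were called lower in SD (limma adjusted p = 0.0319 and 0.0293). That fit called 3645 of the 5899 genes tested. With median-of-ratios scaling neither was called in SD (limma adjusted p = 0.229 and 0.2868).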

How the results depend on the processing

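For GD against control, the members called lower were 4 in the fit reported, 2 with median-of-ratios scaling, 2 in the fit of only the groups compared and 2 to 4 when a library was left out, and TIR1 and CYC7 were called throughout. All genes called there fell from 1895 to 1077 with that scaling and to 272 with only the groups compared, and were 1176 to 2779 with a library left out. The scaling turned TIR2 (0.31), ANB1 (0.35) and, for SD against control, TIR4 (0.21) and ROX1 (0.19) to higher, none of them called. In GD against control, leaving out a library gave -0.20 to 0.05 for TIR2, -0.26 to 0.11 for ANB1 (0.01 without GD3) and -0.87 to 0.07 for HEM13. For SD against control, 7 members were lower with only the groups compared, where all genes called rose from 2468 to 3645. For GD against SD, members higher were 2 to 5 and members lower 1 to 2 with a library left out (2 and 1 without SD3), and all genes called 1262 to 3218 (2408 with all). For RD against ControlSYN3, members higher and members lower were 0 to 3 each, and all genes called 0 to 3176, the highest without RD1; 1 gene was called without trend and robust estimation. Same-numbered GD and SD libraries did not deviate together (r = -0.126, -0.180 and -0.166 across genes). With the replicate block 1957 genes and 6 members were called, ANB1 being lost (adjusted p = 0.0571). The cause of these changes was not tested. FPKM without depth give no counting error, which matters most for DAN1 and AAC3.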

Other observations

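Some seripauperin genes cannot be told apart in these tables. PAU1 and PAU14, PAU6 and PAU18, and PAU21 and PAU22 have identical coding sequences in the reference, and each pair was listed with the same FPKM in all 11 libraries, so their counts in the lists above are not independent.

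GD2 was the lowest or the highest GD library for several of the genes described, which is common with 3 libraries and was not tested. It was the lowest for HEM13 (66.5 FPKM), CYC7 (17.96 FPKM), TIR4 (19.5 FPKM) and AAC3 (4.81 FPKM). It was the highest for ANB1 (32.7 FPKM), ROX1 (112 FPKM), TIR3 (33.0 FPKM) and DAN1 (3.54 FPKM). For AAC3 (5.53 FPKM in GD1 and 10.8 FPKM in GD3) and ROX1 (104 and 76.2 FPKM), GD3 lay farthest from the others. PUG1, a gene of porphyrin uptake and heme export, was chosen for description after its values were seen. It stood at 80.5 FPKM in GD2, at 24.7 FPKM in GD1 and at 7.52 FPKM in GD3, against 10.96 FPKM in the control. In the other table it was at 47.9 FPKM in ControlSYN3 and at 6.14 to 11.1 FPKM in RD.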
